A study of Homo sapiens with 6 samples.

Results

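The genes described here encode 10 cytoplasmic mRNA-regulating proteins that were grouped as partners named for PDCD4: YBX1, YBX3, PABPC1, PABPC4, ELAVL1, ELAVL2, GIGYF1, GIGYF2, EIF4E2 and G3BP1. They were chosen by name and function, with no measured value in the rule, from 34486 genes to which the deposited transcript tables were summed. All 10 were among the 13047 genes that passed the expression filter and were tested. Only their RNA was measured, so contact between the proteins and PDCD4 was not examined in these data. GIGYF1 and EIF4E2 were not found in the interaction tables read for this work. No claim is made that the others interact with PDCD4 in these cells, and the name partner is used here for the list only.

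RNA was sequenced from MCF10A, a non-tumorigenic human breast epithelial line with the genotype WT. In both groups the cells had been reverse-transfected with siRNA at 10 nM and were taken at 48 h in medium with horse serum, epidermal growth factor, insulin, hydrocortisone and cholera toxin. The siRNA was directed against PDCD4 in 3 libraries (siPDCD4) and was a control siRNA in the other 3 (siCT). The siRNA against PDCD4 was a commercial pool per the methods, and all libraries came from 1 cell line. Whether the replicates were grown apart is not said in the labels. A p-value here thus sets a difference only against the variation among these libraries, which could be purely technical.

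PDCD4 is a tumour suppressor and RNA-binding protein, best known for holding back the helicase eIF4A at the start of translation. The 10 proteins act on mRNAs in the cytoplasm. Cold-shock proteins (YBX1 and YBX3) coat mRNA, poly(A)-binding proteins (PABPC1 and PABPC4) hold the tail and help to recruit the translation machinery, and ELAVL proteins bind U-rich and AU-rich elements and often stabilise the transcript. EIF4E2, also called 4EHP, binds the cap without recruiting eIF4G and represses translation together with GIGYF1 or GIGYF2. G3BP1 is the core scaffold of stress granules.

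The totals of estimated counts lay between 13410441 in siCT replicate 3 and 21828931 in siCT replicate 1. PDCD4 itself was at 90.4, 89.0 and 61.1 CPM (estimated counts scaled between libraries, with a length correction) in the siCT libraries in order and at 9.15, 7.43 and 8.62 CPM in siPDCD4. Its level fell by 3.25 ± 0.17 on the log2 scale (SE, edgeR adjusted p = 2.15e-05). All 13 breast epithelial markers passed the filter, with summed levels of 3218 to 3752 TPM (a level per transcript length) in siCT and 2990 to 3625 TPM in siPDCD4. Of these 13, edgeR called none at an FDR of 5%, with log2 fold changes above 0 for 6 and below 0 for 7. An unadjusted p under 0.05 was reached by 5 of them, beside 8.62% of all tested genes. The sum thus does not show that single markers were unchanged. The fibroblast list summed to at most 2.17 TPM, and CD3E, which defines T cells, was at 0 in every library. The immune list summed to 11.6 to 15.1 TPM in siCT and 15.6 to 16.2 TPM in siPDCD4, nearly all of it from CD14 and CD68. CD14 was higher in every siPDCD4 library, at 6.73 to 8.43 TPM against 4.29 to 5.68 TPM in siCT, while CD68 overlapped. The endothelial list summed to at most 0.743 TPM. Its 1 tested gene had a log2 fold change of 1.28, with an unadjusted p under 0.05 but no call (edgeR adjusted p = 0.405). The part of these differences in the results below was not tested. In bulk RNA, fewer cells with a transcript and less of it per cell cannot be told apart.

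The first question was whether silencing PDCD4 moved the mRNA of any of these proteins. None of the 10 genes passed an FDR of 5% in edgeR, against 0.429% of all tested genes (56 genes). None reached an unadjusted p under 0.05 either, where the background was 8.62%, and none passed in DESeq2, which called 1.46% of all genes, or in limma-voom, which called 0.46%. The log2 fold changes ran from -0.10 for EIF4E2 to 0.10 for ELAVL2, with 7 above and 3 below 0 and a median of 0.02, beside a median of -0.01 over all tested genes. The smallest adjusted p was 0.884.

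The intervals give the range of change that the libraries leave possible for each gene. Over the 10 genes the 95% intervals of the edgeR log2 fold change reached no lower than -0.29 (EIF4E2) and no higher than 0.42 (GIGYF1), which is -18.2% to 34.2% as a change in level. The SE was 0.08 for PABPC1 and 0.16 for GIGYF1, the narrowest and the widest. The interval differs from gene to gene, and a missed threshold does not show equal levels.

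**Figure D1:**
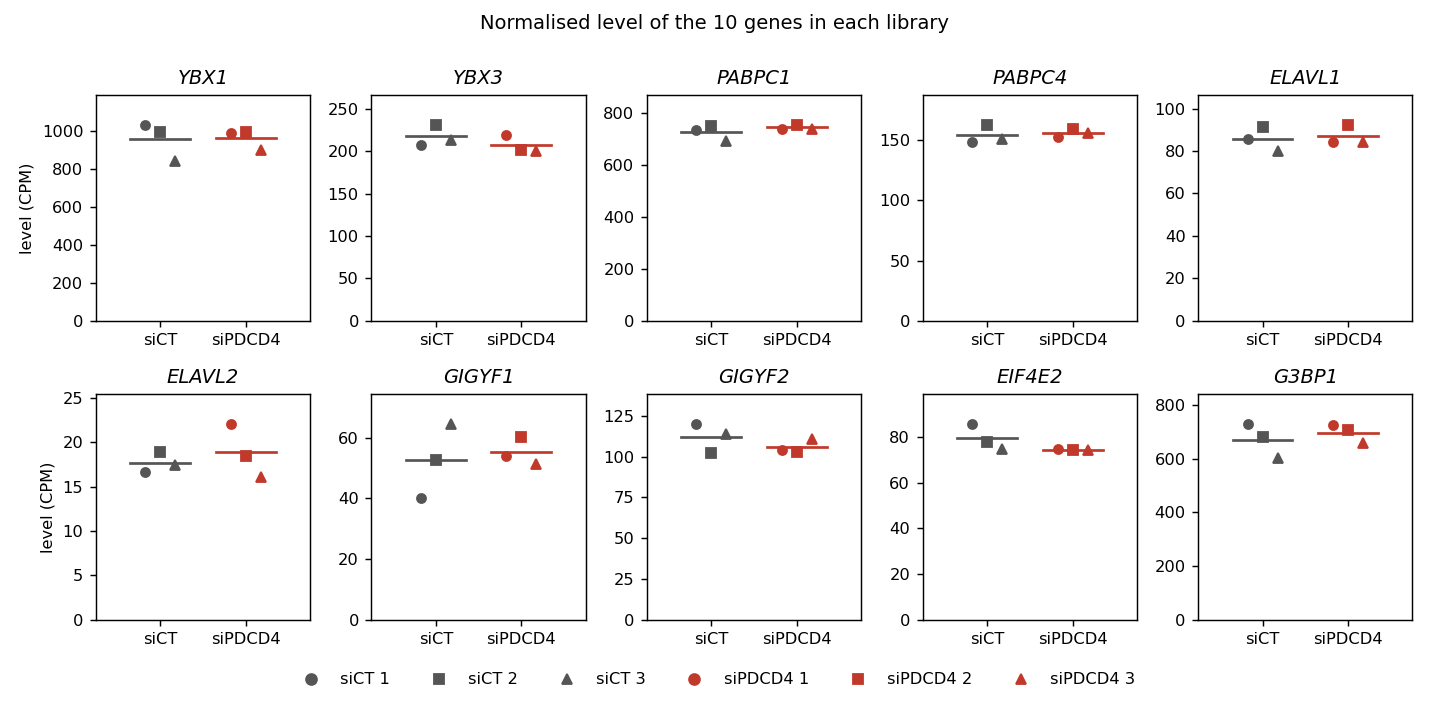
Normalised level in CPM of each of the 10 genes (1 panel per gene, linear axis from 0) in the 3 siCT libraries (grey) and the 3 siPDCD4 libraries (red), with symbols for the replicate numbers and a line at the group mean. The groups overlap in every panel but that of EIF4E2, where the lowest siCT library, at 74.9 CPM, sits just above the highest siPDCD4 library, at 74.6 CPM.

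YBX1, or YB-1, is the most abundant cold-shock protein of many dividing cells and binds mRNA broadly. Its gene, ENSG00000065978, lies on the plus strand at chr1:42682418-42703805 (GRCh38). YBX1 was at 1035, 998 and 845 CPM in siCT replicates 1, 2 and 3 and at 992, 993 and 899 CPM in siPDCD4. The third library of each group was its lowest, and the groups overlapped. Mean levels were 959 ± 101 CPM for siCT and 961 ± 53.9 CPM for siPDCD4 (SD over 3 libraries each). The edgeR log2 fold change of YBX1 was 0.00 ± 0.10 (SE, adjusted p = 0.997).

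YBX3 (chr12:10699089-10723323, minus strand, GRCh38) encodes a second cold-shock protein, known also as ZONAB or CSDA, which was described at tight junctions as well as on mRNA. The gene was at 207, 231 and 214 CPM in siCT and at 219, 202 and 200.3 CPM in siPDCD4. Replicate 1 of siPDCD4 lay between siCT replicates 2 and 3, so the groups overlapped. The log2 fold change was -0.07 ± 0.08 (SE, edgeR adjusted p = 0.936). When only protein-coding transcripts were summed the sign of this value turned, to 0.13, again short of the threshold.

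PABPC1, on chromosome 8, encodes the main cytoplasmic poly(A)-binding protein. It was at 732, 749 and 692 CPM in siCT and at 736, 754 and 739 CPM in siPDCD4. The siPDCD4 libraries lay toward the upper end of the siCT range, with replicate 2 just above it, and siCT replicate 3 was lowest. The log2 fold change was 0.04 ± 0.08 (SE, edgeR adjusted p = 0.974), with a 95% interval from -0.14 to 0.21. For its relative PABPC4 (chr1:39560709-39576790, minus strand, GRCh38), which binds the same tails and was first found in activated T cells, the values were 149, 163 and 151 CPM in siCT and 153, 159 and 156 CPM in siPDCD4. All siPDCD4 values of PABPC4 fell inside the siCT range, and its log2 fold change was 0.01 ± 0.08 (SE).

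ELAVL1, or HuR, is the member of its family made in nearly all tissues, whereas ELAVL2, or HuB, is known chiefly from neurons and gonads. ELAVL1 (chr19:7958573-8005659, minus strand, GRCh38) was at 85.7, 91.5 and 80.2 CPM in siCT and at 84.1, 92.5 and 84.3 CPM in siPDCD4. ELAVL2 (chr9:23690104-23826337, minus strand, GRCh38) was at 16.7, 18.9 and 17.4 CPM in siCT and at 22.1, 18.5 and 16.0 CPM in siPDCD4. The ELAVL2 values of siPDCD4 enclosed those of siCT, with replicate 1 highest and replicate 3 lowest of all libraries. ELAVL2 had the largest log2 fold change above 0 among the 10 genes, 0.10 ± 0.14 (SE, 95% interval -0.22 to 0.42), and without siPDCD4 replicate 1 it was -0.03. ELAVL1 was at 0.02 ± 0.09 (SE). Of the 7 neuronal markers, STMN2, NEFL and GAP43 were at 0 in every library, while RBFOX3, SNAP25, SYT1 and MAP2 were detected in all, with MAP2 highest at 0.801 to 1.82 TPM. The neuronal list summed to 2.76 to 3.15 TPM in siCT and 1.75 to 2.63 TPM in siPDCD4, lower in every siPDCD4 library. MAP2 and SYT1 were each lower in every siPDCD4 library, and SNAP25 overlapped. RBFOX3 went the other way, at 0.0621 to 0.118 TPM in siCT and 0.203 to 0.210 TPM in siPDCD4. Of the 3 genes of this list that were tested edgeR called none, and 2 had an unadjusted p under 0.05. The part of these values in the ELAVL2 level was not tested. The family members ELAVL3 and ELAVL4 were at 0 in every library.

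GIGYF1 and GIGYF2 are scaffold proteins with a GYF domain, which binds proline-rich stretches of partner proteins, and they tie EIF4E2 to the mRNAs it represses. GIGYF1 (chr7:100679507-100694250, minus strand, GRCh38) was at 40.1, 52.7 and 64.6 CPM in siCT and at 53.9, 60.2 and 51.4 CPM in siPDCD4. The spread within siCT, 1.61-fold between its lowest and highest library, was the widest of the 10 genes in that group and enclosed every siPDCD4 value. The log2 fold change of GIGYF1 was 0.08 ± 0.16 (SE, edgeR adjusted p = 0.973), and it ranged from -0.09 to 0.25 as single libraries were left out.

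GIGYF2 (chr2:232697299-232860605, plus strand, GRCh38) was at 120.3, 102 and 114 CPM in siCT and at 104, 103 and 111 CPM in siPDCD4. All 3 siPDCD4 values lay within the range of siCT. The log2 fold change was -0.08 ± 0.09 (SE, edgeR adjusted p = 0.918).

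EIF4E2 lies on the same strand of the same chromosome (chr2:232550659-232583644, GRCh38), 114 kb before the start of GIGYF2. Its level was 85.9, 78.0 and 74.9 CPM in siCT and 74.6, 74.3 and 74.4 CPM in siPDCD4. It was the only one of the 10 genes whose groups did not overlap, with all siPDCD4 libraries lower, although siCT replicate 3 stood only just above the nearest of them. Groups failed to overlap in 13.9% of all tested genes, and in 7.14% with siPDCD4 lower, so 1 gene in 10 is near the background. EIF4E2 had the smallest p of the 10 genes, 0.281 in edgeR, with a log2 fold change of -0.10 ± 0.09 (SE, adjusted p = 0.884). In every alternative run the value stayed below 0, between -0.14 and -0.04.

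The genes with the profile most like EIF4E2 were sought among the 3898 tested genes with a mean CPM within 2-fold of it, by the root mean square difference of centred log2 CPM over the 6 libraries. RAB5IF (0.022 log2 units), ATP5F1E (0.0231) and SNX3 (0.0235) came closest. Like EIF4E2 they were highest in siCT replicate 1, and none of them passed the threshold (adjusted p = 0.912, 0.955 and 0.862 in edgeR). They were chosen for this likeness over the same libraries, so neither trait is a separate result.

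G3BP1 (chr5:151771045-151812911, plus strand, GRCh38) was at 730.2, 681 and 602 CPM in siCT and at 725, 707 and 658 CPM in siPDCD4. As for YBX1, replicate 3 was the lowest of each group. The log2 fold change was 0.05 ± 0.09 (SE, edgeR adjusted p = 0.965). Over the 10 genes, siCT replicate 3 was the lowest of the 6 libraries for 4 (YBX1, PABPC1, ELAVL1 and G3BP1) and the highest for GIGYF1. In this library 76.2% of the counts came from protein-coding genes, against 78.7% to 86.4% in the other 5. Without it the log2 fold change turned to -0.08 for YBX1, -0.03 for ELAVL1 and -0.02 for G3BP1. Its part in these values was not tested beyond leaving it out. The SD was larger in siCT than in siPDCD4 for 9 of the 10 genes.

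**Figure D2:**
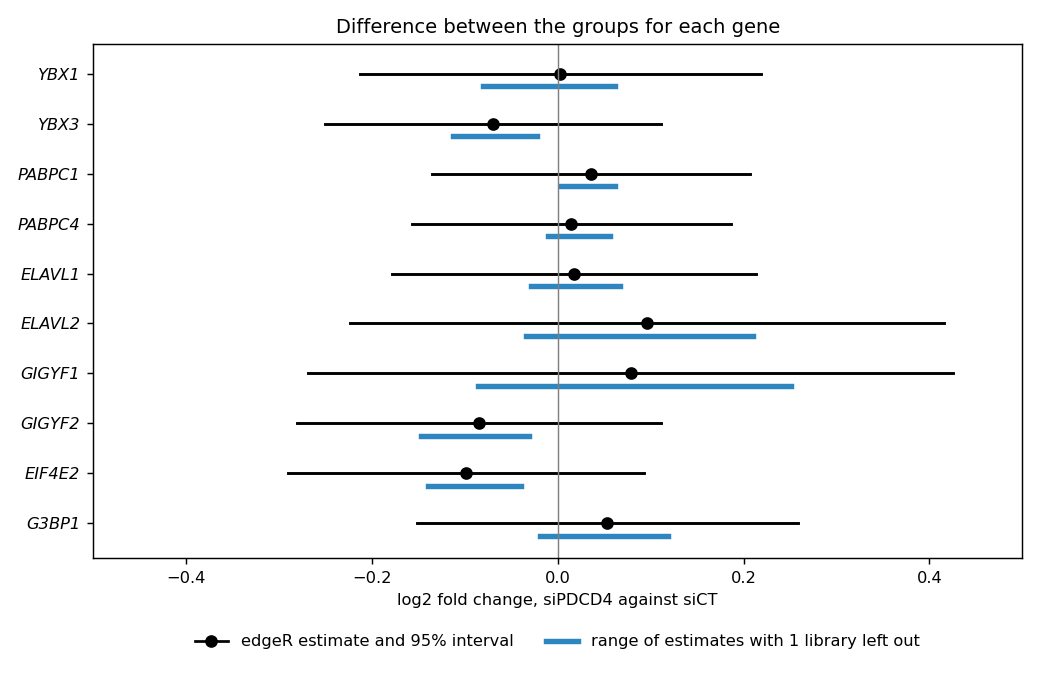
Log2 fold change of siPDCD4 against siCT for each of the 10 genes: black points and lines give the edgeR estimate and its 95% interval, and blue bars the range of estimates when 1 of the 6 libraries is left out. Every interval spans 0 and lies between -0.29 and 0.42, and the blue bars of YBX1, PABPC4, ELAVL1, ELAVL2, GIGYF1 and G3BP1 cross 0.

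The next question was at what relative levels MCF10A cells carried these mRNAs. On the TPM scale, which divides by transcript length and so allows genes to be compared, the siCT means were 766 ± 95.2 for YBX1, 415 ± 45.3 for G3BP1, 314 ± 23.8 for PABPC1 and 173 ± 16.9 for YBX3 (SD, n = 3). These 4 genes stood among the most abundant: YBX1 ranked 121st and YBX3 459th of the 13047 tested genes. The values are gene totals over all listed transcripts, coding or not. Protein-coding transcripts held from 38.2% (PABPC1) to 100% (ELAVL2) of a gene's counts in the siCT means. A middle group followed, with PABPC4 at 66.6 ± 5.96 TPM, EIF4E2 at 59.0 ± 4.31 TPM, ELAVL1 at 41.7 ± 4.34 TPM and GIGYF2 at 28.6 ± 1.39 TPM. GIGYF1, at 8.44 ± 1.94 TPM, and ELAVL2, at 4.92 ± 0.51 TPM, were lowest.

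The same order held in siPDCD4, and no gene overlapped its neighbour in the order when all 6 libraries were taken. The margin was smallest between PABPC4, never under 62.8 TPM, and EIF4E2, never over 62.4 TPM, and between GIGYF1, never under 6.32 TPM, and ELAVL2, never over 6.27 TPM. Together the 10 genes made up 1877 ± 181 TPM in siCT and 1918 ± 87.0 TPM in siPDCD4 (two-sided exact permutation test, p = 0.80, where 3 against 3 libraries allow no p below 0.10). PDCD4 itself was at 52.0 ± 11.7 TPM in siCT, below EIF4E2 and above ELAVL1, and at 5.52 ± 0.588 TPM in siPDCD4, close to ELAVL2.

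**Figure D3:**
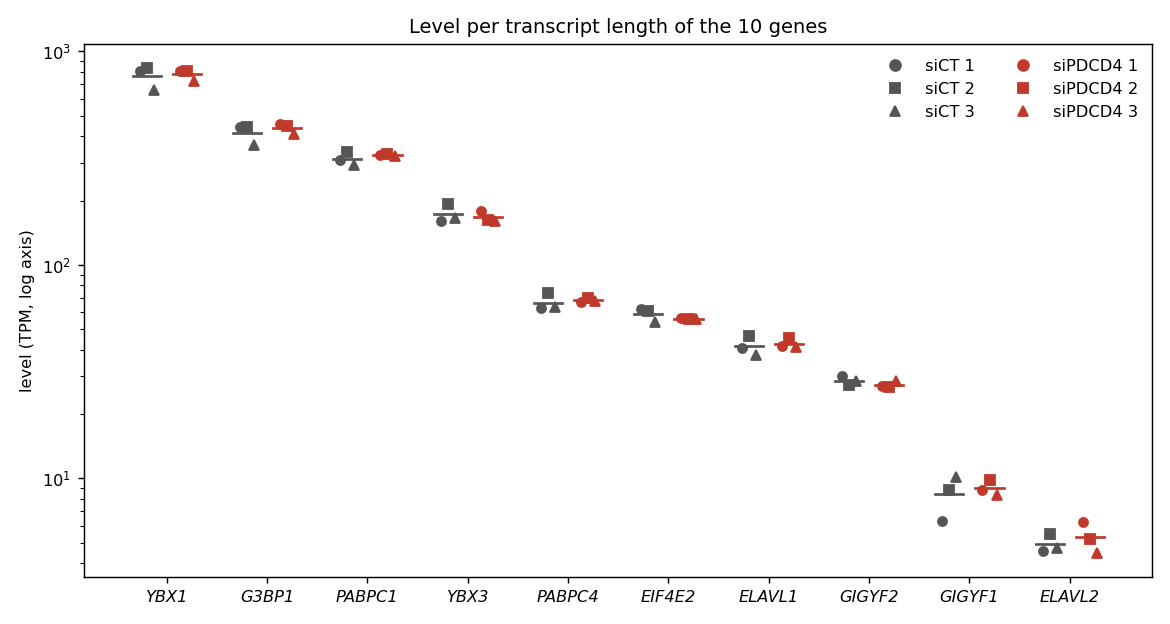
Level per transcript length in TPM (log axis) of the 10 genes in order of their siCT mean, for the 3 siCT libraries (grey) and the 3 siPDCD4 libraries (red), with lines at the group means. YBX1 is highest and ELAVL2 lowest in both groups.

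Within each family one gene dominated. The TPM of YBX1 was 4.42 times that of YBX3 in siCT and 4.67 times in siPDCD4, and that of PABPC1 was 4.72 and 4.79 times that of PABPC4. ELAVL1 exceeded ELAVL2 by 8.46-fold and 8.10-fold, and GIGYF2 exceeded GIGYF1 by 3.46-fold and 3.06-fold. None of these 4 ratios differed between the groups beyond the spread of the libraries (two-sided exact permutation tests on log2 ratios, p = 0.50, 0.60, 0.90 and 0.60, Benjamini-Hochberg 0.80 to 0.90). The GIGYF ratio varied most, from 2.25 in siCT replicate 1 to 1.44 in siPDCD4 replicate 2 on the log2 scale. The relatives outside the 10 were lower or absent: G3BP2 was at 65.6 ± 3.62 TPM in siCT, PABPC1L at 7.14 ± 0.885 TPM, and PABPC5 at 0. The cap-binding factor EIF4E, which EIF4E2 resembles but which does recruit eIF4G, was at 116 ± 19.1 TPM, above EIF4E2.

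Reads that fit more than one gene can blur such comparisons. YBX1 shared 27.4% of its distinct 31-base words with transcripts of other listed genes, most with the pseudogene YBX1P1, and PABPC1 shared 10.7%. The other members shared at most 4.91%. No 31-base word was shared between YBX1 and YBX3, PABPC1 and PABPC4 or GIGYF1 and GIGYF2, and 1 was shared between ELAVL1 and ELAVL2. The listed pseudogenes named after a member (10 for YBX1, 12 for PABPC1, 2 for EIF4E2 and 1 each for YBX3 and G3BP1) took at most 0.116% of the counts of any member with its pseudogenes, in the way Salmon divided the reads.

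The tables also divide each gene among its transcripts, so the forms behind these sums were examined. The 10 genes had 264 listed transcripts, from 4 for YBX1 to 78 for G3BP1, and 179 of them had any counts. For YBX1, YBX1-203 took 71.2 ± 1.82% of all counts of the gene in siCT and 72.2 ± 2.04% in siPDCD4 (SD, n = 3). YBX1-204, a shorter transcript with no defined coding sequence, held 16.9 ± 0.294% in siCT and 15.5 ± 0.759% in siPDCD4. The values of YBX1-204 were 16.8%, 17.2% and 16.6% in siCT and 16.3%, 15.2% and 14.9% in siPDCD4, so that every siPDCD4 library was below every siCT library (exact permutation test, p = 0.10, the smallest possible, Benjamini-Hochberg 0.60 over the 6 genes with such transcripts). How often such shares separate over all genes was not computed, so this separation has no background beside it.

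YBX3 was split between YBX3-201 (38.6 ± 2.98% in siCT, 44.98 ± 5.92% in siPDCD4) and YBX3-202 (34.1 ± 3.07% and 31.6 ± 4.18%). PABPC1 was led by PABPC1-225, which has no defined coding sequence (50.9 ± 9.33% and 49.1 ± 6.76%), before the coding PABPC1-201 (24.3 ± 6.19% and 26.7 ± 7.55%). In PABPC4 no transcript passed 25.1% in either group mean, and PABPC4-203 and PABPC4-229 were the main ones. ELAVL1 was divided between the short ELAVL1-205 (55.3 ± 0.533% and 53.3 ± 2.13%) and the long ELAVL1-201 (41.9 ± 1.92% and 43.7 ± 1.72%), whose coding sequences have the same length of 326 codons.

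ELAVL2 came mostly from ELAVL2-201, at 84.3%, 76.2% and 55.2% in siCT and 66.7%, 47.4% and 75.5% in siPDCD4. The rest was largely ELAVL2-208, at 11.2%, 14.9% and 36.9% in siCT and 24.2%, 33.1% and 21.4% in siPDCD4. Libraries of the same group differed here by more than the group means did. GIGYF1-207 held 61.3 ± 1.96% of GIGYF1 in siCT and 60.6 ± 16.5% in siPDCD4, with GIGYF1-206 and GIGYF1-201 behind it. GIGYF2-205 was at 45.5 ± 8.31% in siCT and 53.8 ± 3.63% in siPDCD4, before GIGYF2-215 (13.8 ± 2.26% and 13.4 ± 3.26%) and GIGYF2-201 (14.5 ± 2.19% and 12.3 ± 3.29%). EIF4E2-201 held 46.7 ± 2.42% and 47.1 ± 1.38%, EIF4E2-202 19.4 ± 4.08% and 20.9 ± 1.25%, and EIF4E2-215 13.9 ± 1.67% and 13.8 ± 3.04%. G3BP1 was spread over many forms, with G3BP1-202 (26.4 ± 2.95% and 24.1 ± 3.02%) and G3BP1-250 (25.6 ± 2.30% and 23.9 ± 1.70%) in front.

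Isoform shares were tested in all 10 genes with the edgeR function diffSpliceDGE, which called none of them at an FDR of 5%, against 0.444% of the 7879 genes tested. None reached an unadjusted p under 0.05 (background 1.22%), and the smallest p was 0.719, for YBX3. Of the 264 transcripts, 104 passed the filter for a test of their own. edgeR called none of them and none of all 47375 transcripts tested (0.0%), with 1 member transcript at an unadjusted p under 0.05 (background 3.11%), and limma-voom called none either (0.0%). As these fits called no transcript of any gene, the silenced PDCD4 included, their lack of calls says nothing particular to the members.

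DESeq2 called 1.13% of the 47375 transcripts (0.574% as lower) and 1 of the 104, G3BP1-235 (ENST00000677323). This transcript had 561, 677 and 445 estimated counts in siCT and 239, 326 and 287 in siPDCD4, so all siPDCD4 libraries were lower. It made up 5.04 ± 1.12% of the counts of G3BP1 in siCT and 2.63 ± 0.72% in siPDCD4. Its log2 fold change was -0.89 ± 0.24 (SE, adjusted p = 0.0248) in DESeq2 and -0.90 ± 0.23 (SE, adjusted p = 0.972) in edgeR. G3BP1-235 has the same coding length as G3BP1-202, 466 codons, and differs from it only in a first exon of 396 instead of 127 bases and in a second exon of 144 instead of 113 bases.

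A further 22 transcripts of 5 members (7 of GIGYF2, 6 of PABPC4, 5 of G3BP1 and 2 each of PABPC1 and YBX3) were at 0 in at least 1 library and had 50 or more counts in another. G3BP1-201, an example chosen after its values were seen, had 0, 342 and 0 counts in siCT and 406, 135 and 266 in siPDCD4, and PABPC1-208, chosen likewise, had 361 counts in siCT replicate 1 and 0 elsewhere. GIGYF2-242, singled out after its values were seen, had 0 counts in every siCT library and 10.3, 30.9 and 103 in siPDCD4, and it did not pass the filter for a test. Most of these jumps lay between replicates of 1 group.

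Transcripts that keep an intron were listed for 8 of the 10 genes, all but YBX1 and ELAVL2. They were most prominent in PABPC4, at 30.3%, 28.5% and 40.4% of its counts in siCT and 28.5%, 26.7% and 29.95% in siPDCD4. In the other 7 genes the siCT means lay between 0.787% (GIGYF1) and 8.04% (EIF4E2). In no gene did the groups separate (exact permutation p from 0.30, Benjamini-Hochberg 0.90), and how often they do over all genes was not computed. The mean was lower in siPDCD4 for 5 genes and higher for 3, and siCT replicate 3 was the highest library in 6 of the 8. Over all genes, retained-intron transcripts held 5.23% of the counts in that library, within the range of 4.44% to 5.72% of the other 5.

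**Figure D4:**
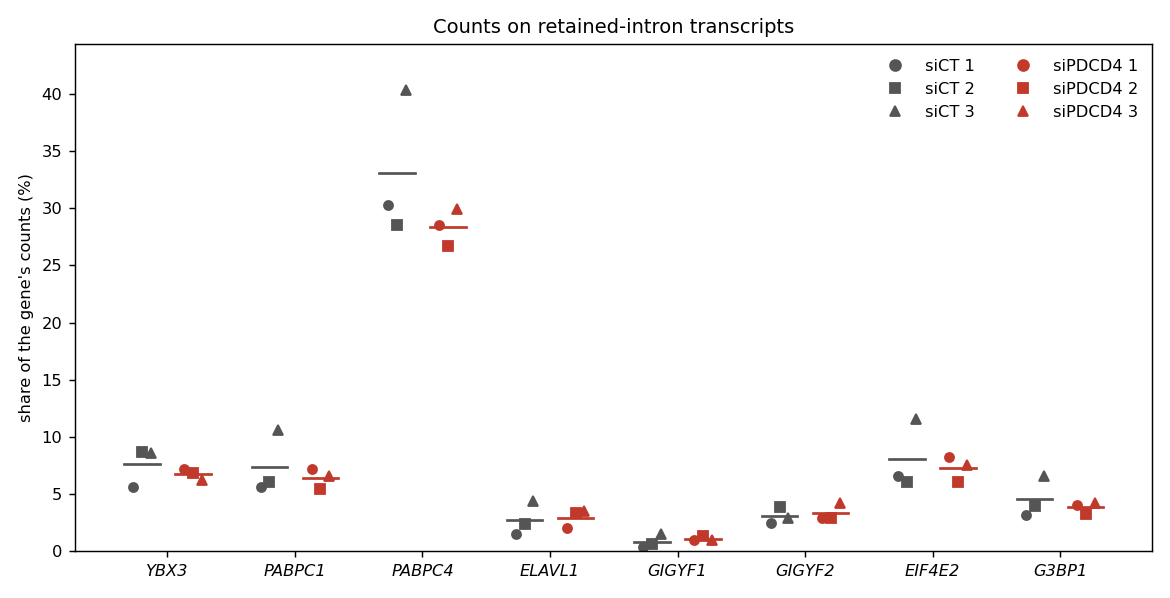
Share of each gene's estimated counts assigned to retained-intron transcripts (percent, linear axis from 0) in the 3 siCT libraries (grey) and the 3 siPDCD4 libraries (red), with lines at the group means. PABPC4 is highest in every library, between 26.7% and 40.4%, and the siCT replicate 3 triangle tops 6 of the 8 genes.

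From the TPM of the transcripts that include or skip an exon, the inclusion of 24 exons in 8 of the genes could be followed, with a mean between 3% and 97%. Of these, 9 were coding exons of up to 300 bases whose length is a multiple of 3, so that skipping keeps the reading frame. In YBX3 an exon of 207 bases (69 codons, chr12:10709908-10710114) separates its main transcripts, YBX3-201 and YBX3-202. The junctions that tell the forms apart are shown here from GENCODE transcripts on GRCh38, 5′ to 3′ in the sense of the gene, with bases of the alternative exon in capitals.
YBX3-201, into the exon: ggccctccccggaatTACGCTGGGGAGGAG
YBX3-201, out of the exon: CCCAACAGAATACAGgctggtgagattgga
YBX3-202, skipping: ggccctccccggaatgctggtgagattgga

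The YBX3 exon was included at 52.8%, 53.4% and 56.4% in siCT and at 56.2%, 59.9% and 55.5% in siPDCD4. Only siCT replicate 3 reached into the siPDCD4 range, and the means of 54.2 ± 1.91% and 57.2 ± 2.38% did not separate (exact permutation test, p = 0.30, Benjamini-Hochberg 0.68 over the 9 coding exons). Both the long and the short form of YBX3 were thus present in every library.

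In ELAVL2 an exon of 39 bases (13 codons, chr9:23693448-23693486) separates ELAVL2-208 from ELAVL2-201, and in G3BP1 an exon of 30 bases (10 codons, chr5:151787765-151787794) is carried by G3BP1-228 among others. They are shown because they are the shortest of the 9 coding exons, with the same use of capitals.
ELAVL2-208, into the exon: ggcacagcgttttagGTTGGACAATCTGCT
ELAVL2-208, out of the exon: TTATGGAGTAAAGAGgttttctccaatgac
ELAVL2-201, skipping: ggcacagcgttttaggttttctccaatgac
G3BP1-228, the whole exon: CTTGCATATTGGATACCACATGATTATCAG
G3BP1-250, skipping: agacatgctgcatagattttatggaaagaa

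Inclusion of the ELAVL2 exon was 16.2%, 21.9% and 39.9% in siCT and 34.0%, 53.2% and 24.4% in siPDCD4. The libraries of both groups were scattered over the same range, on 537 including and 1282 skipping estimated counts in all 6 together (exact permutation test, p = 0.40). The G3BP1 exon was at 7.90%, 6.41% and 6.71% in siCT and at 7.85%, 8.97% and 8.52% in siPDCD4, where siCT replicate 1 overlapped siPDCD4 replicate 1 (exact permutation test, p = 0.20). An exon of 87 bases in PABPC4 (chr1:39563836-39563922) was at 84.4%, 76.5% and 83.6% in siCT and at 73.4%, 71.1% and 77.4% in siPDCD4, with siCT replicate 2 inside the siPDCD4 range (exact permutation test, p = 0.20, Benjamini-Hochberg 0.60). A second PABPC4 exon, of 99 bases (chr1:39571607-39571705), was at 1.71%, 4.17% and 6.43% in siCT and at 7.31%, 12.7% and 4.57% in siPDCD4, on 144 including counts, with overlapping groups (exact permutation test, p = 0.20, Benjamini-Hochberg 0.60). The coding exons of YBX1 (90 bases), PABPC1 (111 bases), EIF4E2 (135 bases) and GIGYF2 (66 bases) differed by less than 1 percentage point between the group means. None of the 9 coding exons separated the groups. These values rest on transcript estimates, without junction reads, so they do not show that splicing was unchanged in these genes, GIGYF2 included.

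Of all 24 exons, 3 separated the groups, all of them noncoding exons in the 5′ part of GIGYF2 that were singled out after their values were seen. Over all tested genes, 8.63% of the 20921 exons that met the same definition separated the groups. An exon of 70 bases (chr2:232700585-232700654) was at 43.6%, 42.6% and 33.2% in siCT and at 44.8%, 51.5% and 50.3% in siPDCD4, higher in every siPDCD4 library. A second exon of 70 bases (chr2:232734417-232734486) was at 39.3%, 34.7% and 31.04% in siCT and at 41.4%, 45.1% and 42.9% in siPDCD4. Both belong to GIGYF2-205, so the values are not independent of each other or of that transcript's share. The third, of 118 bases (chr2:232724574-232724691), was lower in siPDCD4, at 12.5%, 12.4% and 9.53% against 19.8%, 12.9% and 13.4%, on only 164 including counts. Each had an exact permutation p of 0.10, the smallest that 3 against 3 libraries allow, and 0.60 after Benjamini-Hochberg adjustment over the 24 exons.

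**Figure D5:**
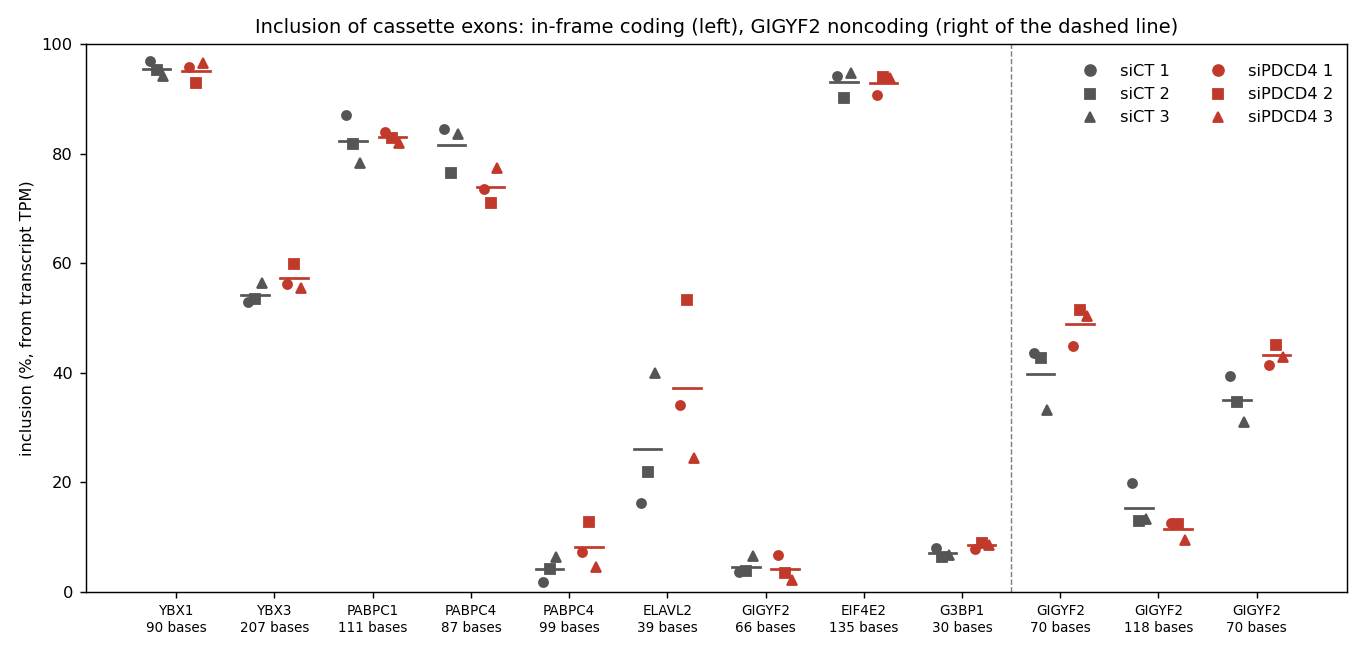
Inclusion (percent, from transcript TPM) of the 9 in-frame coding exons of up to 300 bases (left of the dashed line) and of the 3 noncoding exons of GIGYF2 whose groups do not overlap (right), for the 3 siCT libraries (grey) and the 3 siPDCD4 libraries (red), with lines at the group means. The ELAVL2 exon is scattered most, from 16.2% to 53.2%.

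The last question was whether other genes of the same pathways moved. Across 8 lists of related factors, 95 genes were tested, and edgeR called none of them at an FDR of 5% (background 0.429%). At an unadjusted p under 0.05 there were 8, or 8.42%, beside 8.62% of all tested genes. Log2 fold changes were above 0 for 44 and below 0 for 51, with a median of -0.01.

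The 4EHP-GIGYF list held the gene closest to a call, with none of its 13 tested genes (of 15) past the threshold, 6 above and 7 below 0. TNRC6B, a GW182 protein that brings deadenylases to miRNA targets, was at 77.4, 99.5 and 77.2 CPM in siCT and at 52.8, 58.2 and 55.8 CPM in siPDCD4. All siPDCD4 libraries were below all siCT libraries, and the log2 fold change was -0.61 ± 0.11 (SE, edgeR adjusted p = 0.0535). It passed the threshold in 4 of the 15 alternative fits, where the log2 fold change ranged from -0.67 to -0.48. PRRC2C, which is also in the stress granule list, was next at -0.28 ± 0.09 (SE, edgeR adjusted p = 0.32).

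Of the G3BP stress granule network, 16 of 16 genes were tested, none was called, and 10 were below 0 (median -0.02). NUFIP2, an RNA-binding protein found with FMRP and in stress granules, was at 302, 338 and 315 CPM in siCT and at 239, 269.6 and 249 CPM in siPDCD4. The groups did not overlap, with a log2 fold change of -0.34 ± 0.08 (SE) and adjusted p of 0.18 in edgeR, and it was called by DESeq2 at -0.33 (adjusted p = 0.0231).

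Among poly(A)-binding proteins and their partners, 11 of 14 genes were tested and none was called, with 6 above and 5 below 0. PAIP2B, an inhibitor of poly(A)-binding protein, had a log2 fold change of -0.82 ± 0.24 (SE) (edgeR adjusted p = 0.266), with siCT at 3.78 ± 0.205 CPM and siPDCD4 at 2.13 ± 0.186 CPM (SD over 3 libraries). PABPN1, the nuclear poly(A)-binding protein, was at -0.13 ± 0.08 (SE, edgeR adjusted p = 0.738). In the YBX and cold-shock list 3 of 6 genes were tested, none was called, and CARHSP1 (0.13 ± 0.10) and LIN28A (0.47 ± 0.39, SE) had the smallest p.

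Of the ELAVL family and other AU-rich element binders, 13 of 16 were tested, none was called, and 8 were below 0. ZFP36L2, which destabilises AU-rich mRNAs, was at 0.23 ± 0.09 (SE, edgeR adjusted p = 0.496), and its relative ZFP36 at -0.25 ± 0.18 (SE). For deadenylation, 18 of 18 genes were tested, none was called, and CNOT6L, a catalytic subunit of CCR4-NOT, was at 0.29 ± 0.11 (SE, edgeR adjusted p = 0.483) and the antiproliferative cofactor BTG1 at -0.23 ± 0.16 (SE). For decapping and decay from the cap end, 14 of 15 were tested, none was called, and DCP2, the decapping enzyme, was at 75.6 ± 7.28 CPM (siCT mean, SD) and 95.1 ± 4.17 CPM (siPDCD4 mean, SD), with a log2 fold change of 0.33 ± 0.09 (SE, edgeR adjusted p = 0.254). XRN1, the exonuclease that follows it, was at -0.29 ± 0.20 (SE). Of the IGF2BP proteins and other cytoplasmic mRNA binders, 12 of 14 were tested, none was called, and LSM14A, a component of P-bodies, was at 0.55 ± 0.16 (SE, edgeR adjusted p = 0.287) and LSM14B at 0.14 ± 0.11 (SE).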

How the data were processed

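Libraries were made from total RNA with a stranded kit and read as paired ends. The authors ran Salmon against a GRCh38 transcript set and deposited, for each library, estimated counts, TPM and effective lengths per transcript. No version of that program is stated in the labels or methods. Transcripts were matched by identifier to GENCODE release 44 (181244 of 194142; the others held 5.47% to 6.21% of the counts and were not used) and summed to genes. Rounded estimated counts were tested with edgeR 4.0.16 in R 4.3.3 (TMM factors, filterByExpr, robust quasi-likelihood F test, length offset for genes), with Benjamini-Hochberg adjustment over all features tested and an FDR of 5%. Isoform shares were tested over transcripts with at least 5% of their gene. DESeq2 1.42.0 and limma-voom (limma 3.58.1) were alternatives. Inclusion of an exon was the TPM of transcripts holding it over that of transcripts holding or skipping it. No junction reads were analysed. Scripts were tested on simulated data. Tables and figures were made with Python 3.11.15, pandas 2.3.3 and matplotlib 3.10.9.

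Named were PDCD4, the members, their transcripts with at least 10% of the gene or called, the 2 genes of lowest p in every list, and the 3 genes most like EIF4E2, the member of lowest p. G3BP1-201, G3BP1-228, PABPC1-208 and GIGYF2-242 are outside this rule and were named after their values or exons were seen. Members, lists and this rule were chosen with earlier results of these data known.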

Additional observations from a re-analysis of the deposited data

How the results depend on the processing

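No member was called at the gene level or for isoform shares, and PDCD4 stayed called as lower at -3.41 to -3.08 on the log2 scale, under all alternatives run for them. These included an edgeR fit without robust estimation that was chosen after seeing the data. Of 170 member log2 fold changes under an alternative, 13 turned their sign, in 8 members; their causes were not tested. Without the length offset YBX3 was at 0.057, PABPC4 at -0.024 and GIGYF2 at 0.026, and with only protein-coding transcripts YBX3 was at 0.13. Other values moved but kept their sign. ELAVL2 was at 0.21 without the length offset, against 0.10 in the main fit. PABPC1 was at 0.18 with only protein-coding transcripts, against 0.04 in the main fit. With single libraries left out the ranges were -0.080 to 0.061 for YBX1, -0.011 to 0.056 for PABPC4, -0.029 to 0.067 for ELAVL1, -0.034 to 0.21 for ELAVL2, -0.086 to 0.25 for GIGYF1 and -0.019 to 0.12 for G3BP1. Of the related lists, 1 gene (TNRC6B) was called without the length offset, without the expression filter, with the replicate block and at an FDR of 10%, and 2 with DESeq2. DESeq2 called 1 member transcript. Genes called in all numbered 56, against 191 with DESeq2, 128 without the length offset, 108 without the expression filter, 99 at an FDR of 10%, and 17 (without siPDCD4 replicate 1) to 40 with a library left out.

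Same-numbered libraries correlated at 0.09, 0.13 and 0.20 in their deviations from the group means. Libraries of different number correlated at -0.21 to 0.11. Each siCT library correlated best with its same-numbered siPDCD4 library, but siPDCD4 replicate 1 correlated better with siCT replicate 2 (0.11). Whether the numbers pair the samples was thus not settled, and the main fit did not use them as pairs. With the replicate block, 102 genes, 0 members, 0 member transcripts and 0 members for isoform shares were called. That fit called no transcript of any gene.

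The members' sums rested on libraries of 13410441 to 21828931 counts, with intervals that reach -0.29 to 0.42. For single transcripts the limit is how Salmon divided reads among near-identical forms, 22 of which were at 0 in at least 1 library and at 50 or more counts in another. Exon inclusion was taken from these estimates, and 3 libraries per group allow no exact p below 0.10.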
